A study of Saccharomyces cerevisiae with 16 samples.

Results

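The genes of lower glycolysis are the 8 yeast genes that encode the enzymes from glyceraldehyde-3-phosphate to pyruvate: TDH1, TDH2 and TDH3, PGK1, GPM1, ENO1 and ENO2, and CDC19. They are defined by name and function, were picked with earlier results of these data known, and all 8 were found among the 7126 features of the RNA-seq tables and in every ribosome profiling table. They were followed in Saccharomyces cerevisiae BY4742, a haploid alpha strain in which eIF4E, the factor that binds the mRNA cap during translation initiation, carries an auxin-inducible degron at its C-terminus (genotype eIF4E-AID, tag mAID-3xFlag). With the auxin indole-3-acetic acid (IAA) the degron marks eIF4E for the proteasome. Cultures grew at 30 °C in YPD, a rich glucose medium, with IAA at 500 µM or its solvent DMSO, and were taken at 1 h or 8 h, and RNA-seq and ribosome profiling, which sequences the mRNA fragments covered by ribosomes (footprints), gave 16 libraries in 8 groups of 2: IAA and DMSO at 1 h and at 8 h in each assay. Cells with DMSO carried the degron too, and cells without it were not analysed here, so an effect of IAA itself and the loss of eIF4E cannot be told apart.

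Glycolysis splits glucose into triose phosphates in its upper part and harvests ATP and NADH from them in its lower part. Glyceraldehyde-3-phosphate dehydrogenase (TDH) oxidises the triose phosphate and makes NADH, phosphoglycerate kinase (PGK1) transfers a phosphate to ADP, phosphoglycerate mutase (GPM1) moves the remaining phosphate, enolase (ENO) removes water to give phosphoenolpyruvate, and pyruvate kinase (CDC19) transfers the last phosphate to ADP and leaves pyruvate. In yeast fermenting glucose these mRNAs are among the most abundant of the cell, and their enzymes make up a large part of its protein. TDH3 and ENO2 are the main copies on glucose, and TDH1 and ENO1 are their less expressed relatives.

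The coding sequences lie on 6 chromosomes of build R64 and each is a single exon. TDH1 (YJL052W, chromosome X, 338271 to 339269, plus strand) and TDH2 (YJR009C, chromosome X, 453683 to 454681, minus strand) share a chromosome, and TDH3 (YGR192C) lies on chromosome VII, 882812 to 883810, minus strand. PGK1 (YCR012W) lies on chromosome III, 137746 to 138996, plus strand, and GPM1 (YKL152C) on chromosome XI, 163642 to 164385, minus strand. ENO1 (YGR254W) lies on chromosome VII, 1000927 to 1002240, plus strand, ENO2 (YHR174W) on chromosome VIII, 451327 to 452640, plus strand, and CDC19 (YAL038W) on chromosome I, 71786 to 73288, plus strand. All 8 used few of the possible codons. The effective number of codons, a measure that is low where few codons are used, ran over the members between 24.1 for TDH3, the lowest of 5686 genes, and 27.1 for GPM1, rank 53 of 5686, against a median of 51.6 over all genes. Their GC content was 44.6 to 47.6%, against a median of 39.8%.

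The copies of an enzyme resemble each other closely, which bears on every value given for a single copy. TDH2 and TDH3 differed at 42 of 999 coding bases, TDH1 and TDH3 at 111, TDH1 and TDH2 at 98, and ENO1 and ENO2 at 68 of 1314. Stretches of 28 bases, about the size of a footprint, are shown to let a reader see where a read can and cannot be given to a copy. In the first stretch, coding bases 64 to 91 counted along the coding sequence from its start codon, 11 positions vary among the TDH copies and are in capitals (build R64, TDH1 at chrX:338334-338361, plus strand, TDH2 at chrX:454591-454618, minus strand, TDH3 at chrVII:883720-883747, minus strand):
TDH1: CAAagaAAAGacAtTgaGgttgttgctG
TDH2: CAAagaAAGAacGtCgaAgttgttgctT
TDH3: TCTagaCCAAacGtCgaAgttgttgctT
At coding bases 226 to 253 the TDH copies are the same letter for letter (chrX:338496-338523 for TDH1, chrX:454429-454456 for TDH2 and chrVII:883558-883585 for TDH3), so a read of this stretch fits all of them:
TDH1, TDH2 and TDH3: caagaaagagacccagctaacttgccat
The enolase genes differ at 8 positions, in capitals, of coding bases 340 to 367 (ENO1 at chrVII:1001266-1001293 and ENO2 at chrVIII:451666-451693, both plus strand):
ENO1: gtTtcTTtggcTgctTcCagagcTgcCg
ENO2: gtCtcCAtggcCgctGcTagagcCgcTg
At coding bases 61 to 88 they are the same (chrVII:1000987-1001014 and chrVIII:451387-451414):
ENO1 and ENO2: gaagtcgaattaaccaccgaaaagggtg

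Of all 28-base stretches of a coding sequence, 28.8% for TDH1, 54.6% for TDH2, 47.2% for TDH3 and 42.4% for each of ENO1 and ENO2 also occurred elsewhere in the genome. For PGK1, GPM1 and CDC19 this share was 0%, so their counts rest on reads of their own. The assays treated shared reads differently. In the RNA-seq tables reads with several alignments stood in an entry of their own, 17.9 to 22.02% of the reads of a library. The footprint tables hold no such entry. TEF1 and TEF2, the copies of translation elongation factor 1A, differ at 2 of 1377 bases, and their counts were 3.21 to 53.1% apart in the 8 RNA-seq libraries and 0.0618 to 1.22% apart in the 8 footprint libraries. TDH1 had 398 to 7350 RNA counts per library, against 140469 to 917259 for TDH3, while its footprint counts were 16262 to 76860, against 75763 to 355771 for TDH3. For these reasons footprints of single TDH and ENO copies, and their footprint to RNA ratios, cannot be told apart by copy. The summed counts of each family are given beside them, but shared reads are left out of the RNA sums. In the footprint sums such reads may be counted more than once.

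Library totals over genes were 10182227 to 50294053 counts for RNA-seq and 1766499 to 9985060 counts for footprints. HIS3, LEU2, LYS2 and URA3, which are deleted in BY4742, had at most 37 RNA counts in a library and 0 footprints, against 3186 RNA counts or more of the alpha-cell agglutinin gene SAG1. CDC33, the gene of eIF4E, had 5954 to 27691 RNA counts per library, but the degron acts on the protein and the mRNA is no check of the treatment. Replicates are biological per the labels, which name no separate cultures, so p-values rest on a spread that could be technical in part. An exact two-sided permutation test of 2 against 2 libraries cannot go below p = 0.333, so tests are those of edgeR across all genes. Values are CPM, read counts brought to a shared library size with TMM factors, so a fall means fewer reads relative to the other genes of the library, and fewer mRNAs per cell cannot be told apart from more of other RNA. Changes are log2 fold changes of IAA over DMSO with their standard error, and a gene was called at an adjusted p under 0.05.

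In cells with DMSO the members covered a wide range of RNA levels per kilobase of coding sequence. At 1 h TDH3 stood first with 21203 ± 1703 CPM per kb (SD, n = 2, as for the other levels). ENO2 (10389 ± 195), GPM1 (10351 ± 357), CDC19 (7317 ± 45.4) and PGK1 (6277 ± 857) followed, and their levels overlapped between neighbours for ENO2 and GPM1 alone. TDH2 (2153 ± 64.8), ENO1 (453 ± 54.7) and TDH1 (142 ± 52.5) were lowest. At 8 h the RNA level was 29113 ± 2234 CPM per kb for TDH3, 9603 ± 214 for GPM1, 8619 ± 498 for ENO2, 8007 ± 1179 for CDC19, 5278 ± 702 for PGK1, 3164 ± 545 for TDH2, 216 ± 30.2 for ENO1 and 50.9 ± 11.3 for TDH1, with an overlap between ENO2 and CDC19. Because shared reads are left out of the RNA tables, the levels of TDH and ENO copies are too low by an unknown amount. Footprint levels per kilobase with DMSO were highest for TDH3 at both times, 37509 ± 260.3 CPM per kb at 1 h and 43237 ± 6533 at 8 h, and lowest for GPM1 at 1 h (8536 ± 136) and for ENO1 at 8 h (6666 ± 539). Between them stood, at 1 h, ENO2 (21935 ± 418), TDH2 (20717 ± 355), CDC19 (13047 ± 55.8), ENO1 (10358 ± 12.9), PGK1 (9152 ± 279.9) and TDH1 (8616 ± 174). At 8 h these were TDH2 (22972 ± 4070.4), ENO2 (14603 ± 421), GPM1 (13043 ± 218), TDH1 (9307 ± 1364), CDC19 (8611 ± 172) and PGK1 (7822 ± 33.0). Neighbours overlapped for TDH1 and GPM1 at 1 h, whose order turned when length was counted without the first 20 codons, and for TDH1 and CDC19 at 8 h.

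Among the members free of shared reads, footprints were high relative to RNA in cells with DMSO. The footprint to RNA ratio, on the log2 scale and relative to the other genes, was 2.08 ± 0.08 (SE) for CDC19, 1.79 ± 0.10 for PGK1 and 0.96 ± 0.07 for GPM1 at 1 h, at percentiles 95.4, 94.7 and 88.4 of 5907 genes. At 8 h it was 0.68 ± 0.15, 1.14 ± 0.14 and 1.01 ± 0.14 for CDC19, PGK1 and GPM1, at percentiles 81.6, 92.2 and 90.1 of 5362 genes. The library kits differed between the times, in poly(A) selection at 1 h against rRNA depletion at 8 h for RNA, and in the ligase, primer and rRNA removal for footprints, so differences between the times cannot be told apart from the kits.

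**Figure D1:**
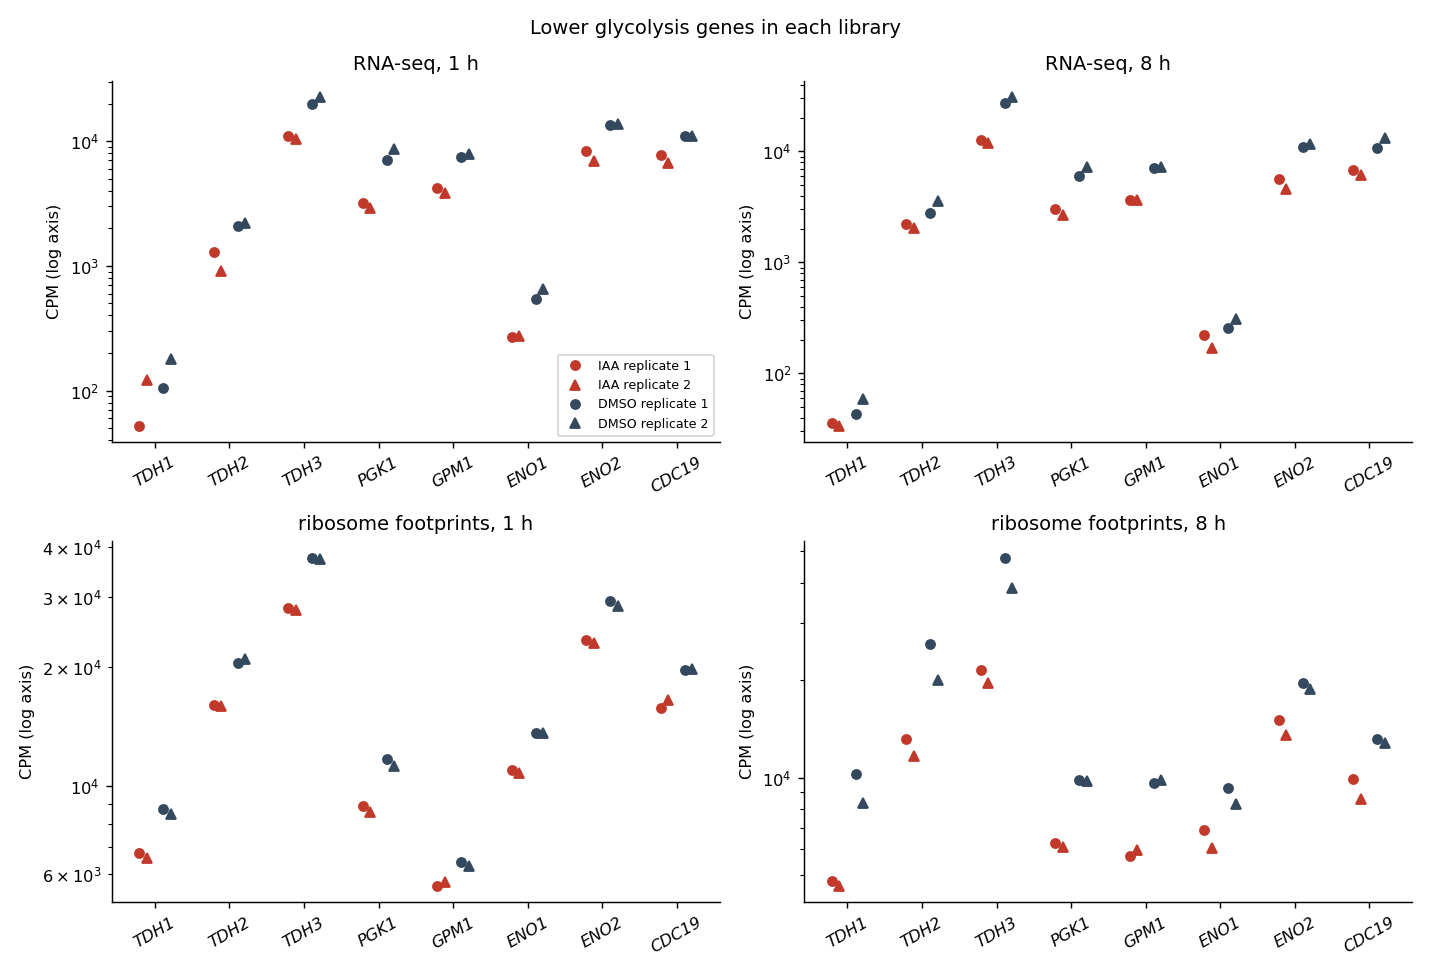
CPM (log axes) of the 8 lower glycolysis genes in each library, by assay and time, with IAA in red left of DMSO in blue; circles are replicate 1 and triangles replicate 2. Except TDH1 RNA at 1 h, where 122 CPM in an IAA library exceeded 105 CPM in a DMSO library, both IAA libraries lie below both DMSO libraries for every member in every panel, as they did for 36.6% of all genes tested in RNA at 1 h, 30.2% in footprints at 1 h, 30.3% in RNA at 8 h and 30.2% in footprints at 8 h.

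The members took a smaller share of all gene counts with IAA in each assay and at each time. Of RNA counts they made up 3.77% and 3.55% with IAA, against 5.67% and 6.26% with DMSO, at 1 h. At 8 h these shares were 3.53% and 3.14% with IAA, against 6.27% and 7.47% with DMSO. Of footprint counts they made up 12.3% and 12.2% with IAA, against 13.7% and 13.8% with DMSO, at 1 h, and 9.15% and 8.37% with IAA, against 13.0% and 11.7% with DMSO, at 8 h. The IAA and DMSO libraries did not overlap in any of the 4 comparisons, and the footprint shares with IAA lay closer to DMSO at 1 h than at 8 h. Shared reads of the TDH and ENO copies are missing from the RNA shares and may enter the footprint shares more than once. The shares of RNA and of footprints are thus not comparable with each other.

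The first comparison asked how lower glycolysis mRNAs stood after 1 h of IAA. RNA of 7 of the 8 members was lower with IAA at an adjusted p under 0.05, while 20.9% of the 6247 genes tested were called lower. TDH1 did not pass. The members' median log2 fold change was -0.96, against 0.01 over all genes. PGK1, the phosphoglycerate kinase gene, changed most, followed by the enolase gene ENO1.

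TDH3, the main dehydrogenase gene, had 10897 and 10434 CPM with IAA, against 19978 and 22385 CPM with DMSO in RNA at 1 h. Both IAA libraries were below both DMSO libraries, a log2 fold change of -0.99 ± 0.19 (adjusted p = 0.00824). TDH2 had 1279 and 902 CPM with IAA, against 2105 and 2196 CPM with DMSO, a change of -0.98 ± 0.18 (adjusted p = 0.00707). TDH1 had 52.4 and 122 CPM with IAA, against 105 and 179 CPM with DMSO, and its groups overlapped (-0.70 ± 0.41, adjusted p = 0.203). Its value ran between -1.44 and -0.24 when 1 library was left out, and it was called without DMSO replicate 1 (-1.04) or without IAA replicate 2 (-1.44). Summed over the copies, TDH RNA changed by -0.99 ± 0.19.

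PGK1 had 3186 and 2929 CPM with IAA, against 7094 and 8610.0 CPM with DMSO, which is 2.57-fold lower with IAA (log2 fold change -1.36 ± 0.16, adjusted p = 0.00202). GPM1, the mutase gene, had 4199.8 and 3831 CPM with IAA, against 7514 and 7889 CPM with DMSO (-0.94 ± 0.14, adjusted p = 0.00421). The replicates of each group lay close together for GPM1, and the groups were well apart. ENO2, the main enolase gene, had 8341 and 6888 CPM with IAA, against 13470.0 and 13832 CPM with DMSO (-0.84 ± 0.18, adjusted p = 0.0125). ENO1 had 269 and 272 CPM with IAA, against 545 and 647 CPM with DMSO (-1.14 ± 0.10, adjusted p = 0.00109). The major and the minor enolase gene were both lower, and their sum changed by -0.85 ± 0.18. CDC19, the pyruvate kinase gene at the end of the pathway, had 7804 and 6614 CPM with IAA, against 10949 and 11046 CPM with DMSO, the smallest change of the called members (-0.61 ± 0.17, adjusted p = 0.0288).

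The calls at 1 h depended on single libraries. TDH3, GPM1, ENO2 and CDC19 lost theirs without DMSO replicate 1 or without DMSO replicate 2, with log2 fold changes of -1.08 to -0.61, which left 4 and 3 called members. Without either IAA library 7 members were called, though CDC19 was not without IAA replicate 2 (-0.50, adjusted p = 0.0592), where TDH1 was.

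Ribosome footprints at 1 h were lower for all 8 members at an adjusted p under 0.05, against 14.9% of 5169 genes called lower. The point values were nearer to 0 than in RNA. Their changes ran between -0.43 for TDH3 and -0.17 for GPM1, with a median of -0.35, against 0.01 over all genes, and no member was both called and at or past 0.58 in size, as 1.82% of the genes tested were. With total-count scaling, which moved the median of all genes by 0.18, GPM1 turned to 0.016 and was not called, which is -0.18 relative to that median.

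Footprints of TDH3 at 1 h were 28103 and 27709.6 CPM with IAA, against 37655 and 37287 CPM with DMSO (-0.43 ± 0.03, adjusted p = 4.76e-13), and the TDH genes together had 50885 and 50145 CPM with IAA, against 66830.1 and 66718 CPM with DMSO (-0.40 ± 0.03, adjusted p = 4.53e-13). PGK1 had 8889.7 and 8583 CPM with IAA, against 11697 and 11202 CPM with DMSO (-0.39 ± 0.04, adjusted p = 3.50e-10). Replicates of PGK1 differed little and the groups were apart. GPM1 had 5600.4 and 5724 CPM with IAA, against 6423 and 6279 CPM with DMSO (-0.17 ± 0.04, adjusted p = 0.00249), the smallest change, and its call was also lost without IAA replicate 1 (-0.15) or IAA replicate 2 (-0.18), and with all 8 footprint libraries in a single fit (-0.17, adjusted p = 0.137). The enolase genes together had 34334 and 33710.3 CPM with IAA, against 42833 and 42032 CPM with DMSO (-0.32 ± 0.03, adjusted p = 9.27e-10). CDC19 had 15744 and 16512 CPM with IAA, against 19551 and 19669 CPM with DMSO (-0.28 ± 0.04, adjusted p = 1.12e-07). Both IAA libraries were below both DMSO libraries.

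Translation efficiency is the footprint change beyond the RNA change, tested as the interaction of treatment and assay. It is relative to the other genes, so a higher value does not show more ribosomes per mRNA in absolute terms. The paper reports reduced bulk protein synthesis soon after IAA was added, a change that such relative values cannot show. At 1 h it was higher with IAA for 4 of the 8 members, PGK1, GPM1, ENO1 and TDH3, while 9.88% of the 6055 genes tested were called higher. The members' median was 0.52, against -0.01 over all genes. RNA and footprints of these 4 genes were both lower with IAA, RNA by more than footprints. PGK1 changed by 0.90 ± 0.16 (adjusted p = 0.00345) and GPM1 by 0.71 ± 0.13 (adjusted p = 0.00431), both without shared reads. The third such gene, CDC19, had 0.26 ± 0.15 (adjusted p = 0.260) and did not pass. For the copies with shared reads, the TDH sum had 0.52 ± 0.15 (adjusted p = 0.0352) and passed. The ENO sum had 0.47 ± 0.16 (adjusted p = 0.0607) and did not, while ENO1 counted alone had 0.75 ± 0.14. The sums are uncertain too, because shared reads are left out in RNA and may be counted more than once in footprints. The call of TDH3 (0.50 ± 0.15) was lost without any of the 4 footprint libraries and without the RNA library of DMSO replicate 2.

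**Figure D2:**
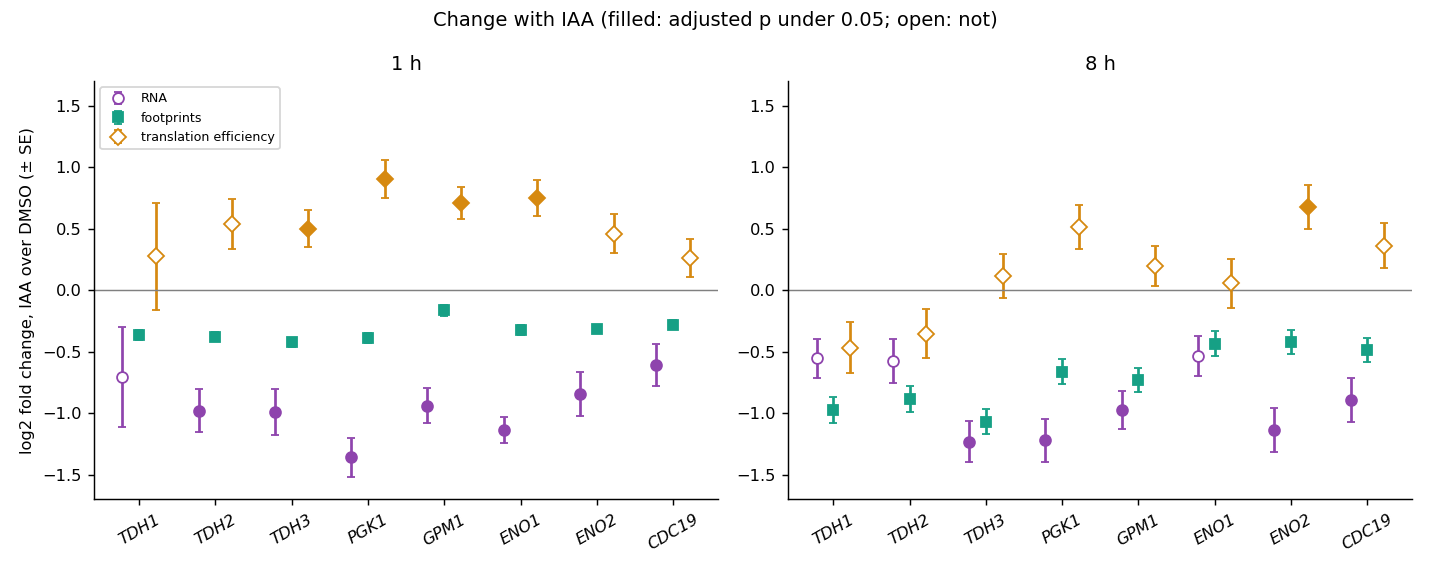
Log2 fold change of IAA over DMSO (y axis; bars are the standard error of the fit, n = 2 libraries per group and assay) for RNA, footprints and translation efficiency of each member at 1 h and 8 h; filled symbols have an adjusted p under 0.05. At 1 h footprint changes (-0.43 to -0.17, with GPM1 at 0.016 under total-count scaling) lie above the RNA changes (-1.36 to -0.61), and at 8 h footprints (-1.07 to -0.42) and RNA (-1.23 to -0.54) cover similar ranges.

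After 8 h of IAA, RNA was lower for 5 of the 8 members, TDH3, PGK1, ENO2, GPM1 and CDC19, against 8.61% of the 6100 genes tested called lower. The 5 are the members with the highest counted RNA levels with DMSO, but levels of TDH and ENO copies are too low by an unknown amount. TDH2, TDH1 and ENO1 had log2 fold changes of -0.58, -0.55 and -0.54 and adjusted p-values of 0.0613, 0.0517 and 0.0591, and did not pass. Both of their IAA libraries lay below both DMSO libraries, as for 30.3% of the 6100 genes tested. The members' median was -0.93, against 0.01 over all genes.

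TDH3 had 12802 and 11973 CPM with IAA, against 27506 and 30662 CPM with DMSO in RNA at 8 h (-1.23 ± 0.17, adjusted p = 0.00531). TDH2 had 2211 and 2031 CPM with IAA, against 2776 and 3546 CPM with DMSO, and TDH1 had 35.5 and 33.9 CPM with IAA, against 42.8 and 58.8 CPM with DMSO. PGK1 had 3008 and 2656 CPM with IAA, against 5982 and 7224 CPM with DMSO (-1.22 ± 0.18, adjusted p = 0.00636), again with both IAA libraries well below both DMSO libraries. GPM1 had 3647 and 3625 CPM with IAA, against 7032 and 7257 CPM with DMSO (-0.97 ± 0.15, adjusted p = 0.00879). ENO2 had 5680.4 and 4596 CPM with IAA, against 10863 and 11788 CPM with DMSO (-1.14 ± 0.18, adjusted p = 0.00842). The minor copy ENO1 had 221 and 171 CPM with IAA, against 256 and 312 CPM with DMSO, a smaller gap between the groups than for ENO2. CDC19 had 6850.2 and 6094 CPM with IAA, against 10782 and 13288 CPM with DMSO (-0.89 ± 0.18, adjusted p = 0.0178).

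The number of calls at 8 h depended on the tool and on single libraries. DESeq2 called all 8 members lower, and 565 of all 5905 genes tested. Without DMSO replicate 1, edgeR called more of the members than with all libraries. With the copies summed, all 5 features tested (the TDH sum, the ENO sum, PGK1, GPM1 and CDC19) were lower. Without IAA replicate 1 or without IAA replicate 2, most or all of the 5 members called by edgeR lost their calls. Far fewer of all genes were called in these fits too. The fold changes of the 5 called members stayed between -1.35 and -0.74 when any library was left out.

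Within the families, the share of the minor copies in RNA was higher with IAA at 8 h. TDH2 made up 14.7% and 14.5% with IAA, against 9.15% and 10.3% with DMSO, of the TDH counts. ENO1 made up 3.74% and 3.59% with IAA, against 2.30% and 2.58% with DMSO, of the ENO counts, and TDH1 0.236% and 0.242% with IAA, against 0.141% and 0.172% with DMSO, of the TDH counts. The groups did not overlap in these shares. At 1 h the share of TDH2 was 10.5% and 7.87% with IAA, against 9.49% and 8.87% with DMSO, and overlapped between the groups, and that of ENO1 was 3.13% and 3.79% with IAA, against 3.89% and 4.47% with DMSO, lower with IAA. TDH1 made up 0.429% and 1.06% with IAA, against 0.474% and 0.724% with DMSO, of the TDH counts at 1 h, and overlapped. In footprints TDH2 held 33.4% and 32.5% with IAA, against 30.8% and 29.97% with DMSO, of the TDH counts at 8 h, without overlap, while ENO1 held 30.5 to 32.4% of the ENO counts over all 8 libraries. These shares were not tested, and those of RNA and footprints cannot be compared, because the assays treated shared reads differently.

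**Figure D3:**
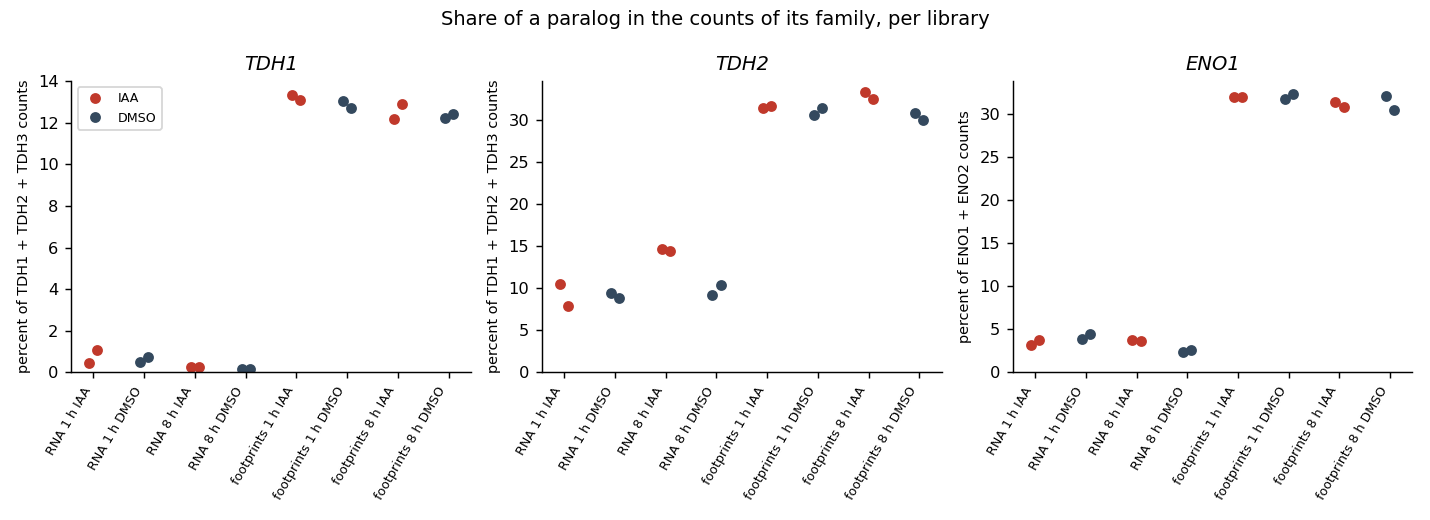
Percent of the counts of a gene family (y axes, from 0) held by TDH1, TDH2 and ENO1 in each library, with IAA in red and DMSO in blue, 2 points per group. In RNA at 8 h TDH2 held 14.7% and 14.5% with IAA, against 9.15% and 10.3% with DMSO. In all footprint libraries each of these copies holds a much larger share than in RNA. Shared reads are left out in RNA and may be counted for several copies in footprints, so the assays cannot be compared in these shares.

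Footprints at 8 h were lower for all 8 members, against 13.0% of 5012 genes called lower, and the values spread more widely than at 1 h. The TDH genes had the largest changes, -1.07 for TDH3, -0.98 for TDH1 and -0.88 for TDH2, with -1.0001 ± 0.0958 for their sum. GPM1 and PGK1 followed, and CDC19 and the enolase genes had the smallest. The members' median was -0.70, against 0.01 over all genes. With total-count scaling, which moved the median of all genes by 0.27, ENO1 (-0.16), ENO2 (-0.15) and CDC19 (-0.22) were no longer called, while the other 5 members were. The same 5, TDH1, TDH2, TDH3, PGK1 and GPM1, had a fall of 0.58 or more on the log2 scale, as did 6.68% of the genes tested.

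Footprints of TDH3 at 8 h were 21509 and 19616 CPM with IAA, against 47808 and 38578 CPM with DMSO (adjusted p = 3.09e-12), a 2.10-fold lower level with IAA. The TDH genes together had 39491 and 35927 CPM with IAA, against 83894 and 66986 CPM with DMSO, and the enolase genes together 22018 and 19622 CPM with IAA, against 28839 and 27056 CPM with DMSO. The DMSO libraries of TDH3 were further apart from each other than the IAA libraries. GPM1 had 5728 and 5961 CPM with IAA, against 9589 and 9819 CPM with DMSO (-0.73 ± 0.10, adjusted p = 1.32e-07). PGK1 had 6277 and 6084 CPM with IAA, against 9814 and 9756 CPM with DMSO (-0.66 ± 0.10, adjusted p = 1.15e-06). For both genes the replicates were close and the groups apart. CDC19 had 9865 and 8592 CPM with IAA, against 13125 and 12759.9 CPM with DMSO (-0.49 ± 0.10, adjusted p = 0.000216). ENO2 had 15109 and 13579 CPM with IAA, against 19579 and 18797 CPM with DMSO (-0.42 ± 0.10, adjusted p = 0.00100), and the summed enolase genes changed by -0.42 ± 0.09. The call of ENO1 (-0.44 ± 0.10) was lost without DMSO replicate 1 (-0.35).

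Translation efficiency at 8 h was higher with IAA for 1 member, ENO2 (0.67 ± 0.18, adjusted p = 0.0369), against 3.45% of 5442 genes called higher, and the sum of the enolase genes passed too (0.65 ± 0.18, adjusted p = 0.0393). PGK1 had 0.51 ± 0.18 (adjusted p = 0.0927), CDC19 0.36 ± 0.18 (adjusted p = 0.243) and GPM1 0.20 ± 0.16 (adjusted p = 0.502), none past the threshold. The summed TDH genes had 0.10 ± 0.18 (adjusted p = 0.773). The negative values of TDH1 and TDH2 taken alone (-0.47 and -0.35) did not pass. The members' median was 0.16, against -0.02 over all genes. The call of ENO2 was lost without any of the 4 footprint libraries and without the RNA library of IAA replicate 2, with values of 0.57 to 0.74.

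**Figure D4:**
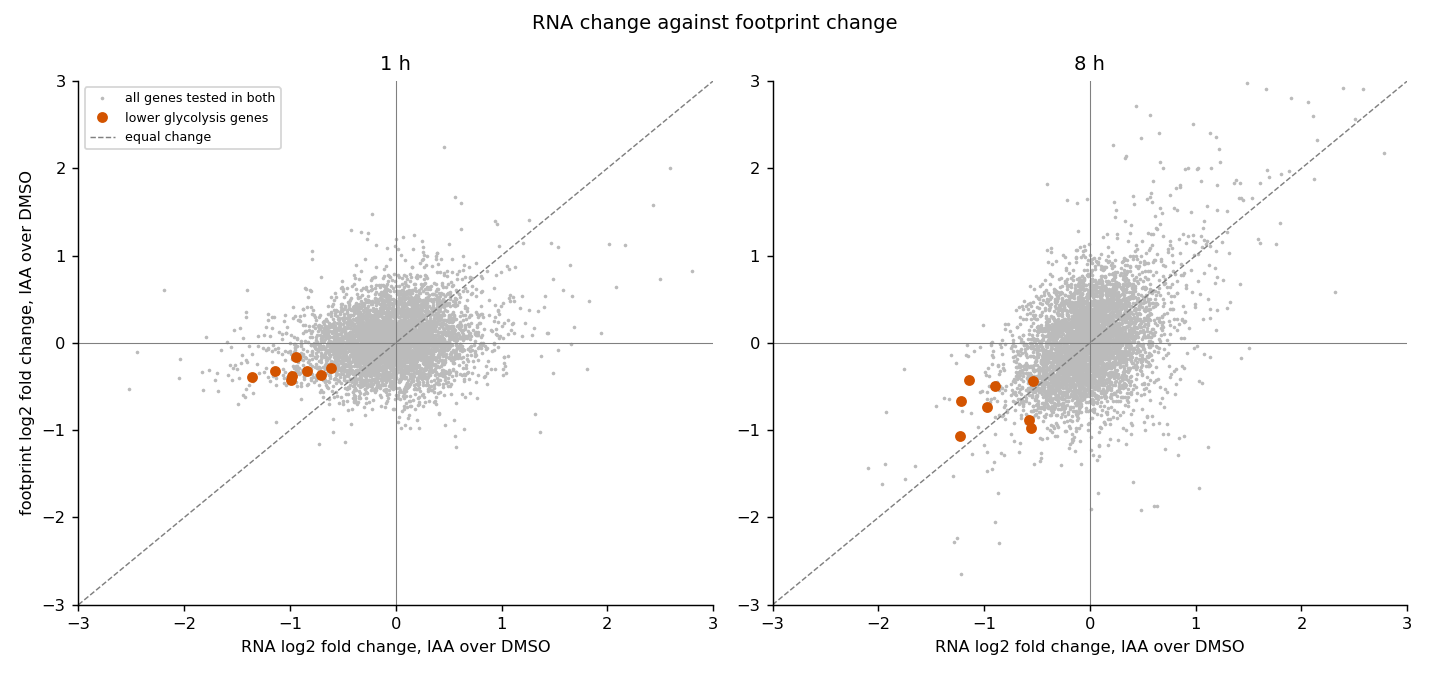
Footprint against RNA log2 fold change, IAA over DMSO, for each gene tested in both assays (grey, 5090 genes at 1 h and 5010 at 8 h, of which 3 and 8 lie outside the axes) and for the 8 members (orange); the dashed line marks equal change. At 1 h the members lie far left of 0 and little below it, above the dashed line, and at 8 h TDH3 lies near the line at -1.23 and -1.07 while ENO2 lies at -1.14 and -0.42. Under total-count scaling the footprint change of GPM1 at 1 h is 0.016.

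Whether the response differed between the times was tested as the interaction of treatment and time. For RNA, 0 of the 8 members were called by edgeR or by DESeq2, 1 (ENO1, 0.59 ± 0.22) had an unadjusted p under 0.05, and the members' values ran between -0.31 and 0.59. Of all 6451 genes, 0.496% were called more negative and 0.946% more positive at 8 h. For footprints, 4 members were called more negative at 8 h, against 4.89% of 5034 genes, and 2 of them (TDH1 and TDH3) by at least 0.58, against 3.18%. TDH3 differed by -0.63 ± 0.12 (adjusted p = 0.00112), TDH1 by -0.60 ± 0.12 (adjusted p = 0.00198), GPM1 by -0.55 ± 0.10 (adjusted p = 0.000601) and TDH2 by -0.50 ± 0.13 (adjusted p = 0.0157). The TDH copies share reads, so their calls are not separate observations. The summed TDH genes differed by -0.59 ± 0.12, and with the copies summed 2 of 5 features were called more negative. ENO1, ENO2, CDC19 and PGK1 had values of -0.10, -0.09, -0.19 and -0.26 and did not pass. TDH2 lost its call without any of 4 libraries, both IAA libraries of 1 h, DMSO replicate 1 and IAA replicate 2 of 8 h, with values of -0.50 to -0.30. Time and library kit cannot be told apart in these comparisons.

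The neighbouring steps of the pathway were compared by their counts of called genes. Of the 8 upper glycolysis genes, from the hexokinases to triosephosphate isomerase, RNA was lower for 7 at 1 h, with a median of -0.83. It was lower for 4 at 8 h, with a median of -0.70. Among all genes tested, 20.9% were called lower at 1 h and 8.61% at 8 h. HXK1, a hexokinase gene, had the largest change at 1 h (-2.44 ± 0.37, adjusted p = 0.00413), and HXK2, the main hexokinase on glucose, had -1.502 ± 0.123 (adjusted p = 0.000976). Upper glycolysis footprints were lower for 5 of 8 genes at 1 h (median -0.28), against 14.9% of all genes. At 8 h they were lower for 2, TPI1 (-0.56 ± 0.10) and FBA1 (-0.37 ± 0.10). They were higher for 3, HXK1 (0.98 ± 0.19) and the phosphofructokinase genes PFK1 (0.42 ± 0.12) and PFK2 (0.40 ± 0.11). The median of the 8 was 0.10, while 13.0% of all genes were called lower and 11.1% higher. With total-count scaling 1 was lower (TPI1) and 5 were higher at 8 h. Of all 5012 genes 194 were then called lower and 1312 higher. At 1 h 4 were lower and 2 higher under this scaling, against 290 and 1588 of 5169 genes. Of the lower glycolysis genes, all 8 were called lower in footprints at both times with TMM factors. With total-count scaling 7 were called lower at 1 h and 5 at 8 h. Translation efficiency of the upper genes was higher for 4 of 8 at 1 h and 5 of 8 at 8 h, with medians of 0.58 and 0.79. Of all genes, 9.88% were called higher at 1 h and 3.45% at 8 h. With total-count scaling it was higher for 5 of the 8 at 1 h and 7 at 8 h. Of all genes, 648 of 6055 at 1 h and 329 of 5442 at 8 h were then called higher. The difference between the upper and the lower genes was not tested.

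Below pyruvate, RNA of 3 of the 5 genes of the route to ethanol was lower at 1 h and of 2 at 8 h. Of all genes, 20.9% were called lower at 1 h and 8.61% at 8 h. ADH1, the main alcohol dehydrogenase gene of fermentation, had -1.29 ± 0.18 at 1 h (adjusted p = 0.00304) and -1.34 ± 0.18 at 8 h (adjusted p = 0.00531). PDC1, the main pyruvate decarboxylase gene, had -0.94 ± 0.18 (adjusted p = 0.00920) and -0.70 ± 0.17 (adjusted p = 0.0305). Footprints of all 5 genes were lower at 1 h, with a median of -0.47, against 14.9% of all genes. At 8 h those of 3 were lower, ADH1, ADH2 and PDC6, against 13.0%. Translation efficiency at 1 h was lower for 2, PDC6 (-1.08 ± 0.20) and PDC5 (-0.65 ± 0.13), and higher for ADH1 (0.88 ± 0.16). Of all 6055 genes, 629 were called lower and 598 higher. At 8 h it was higher for ADH1 alone (0.64 ± 0.18), against 3.45% of all genes. PDC and ADH genes have close copies too, so their single values are uncertain.

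Of the low-abundance relatives of the mutase and pyruvate kinase genes, GPM2, GPM3 and PYK2 were tested, and ERR1, ERR2 and ERR3, relatives of the enolases, were not tested. RNA of GPM3 was lower at 1 h (-0.43 ± 0.10) and 8 h (-0.69 ± 0.14), and no other value of these genes passed. The 1 h call of GPM3 was lost with total-count scaling. The transcription factor genes GCR1 and GCR2, which activate glycolytic genes, had slightly lower RNA at 1 h, -0.34 ± 0.10 (adjusted p = 0.0365) and -0.27 ± 0.07 (adjusted p = 0.0204). TYE7 and RAP1, further activators of these genes, did not pass in any comparison, and GCR1 and GCR2 passed in no other. With total-count scaling GCR1 (-0.13) and GCR2 (-0.056) were not called in RNA at 1 h. Footprints were then called higher for GCR1 at 1 h (0.51) and for TYE7 at 1 h (0.36) and 8 h (0.73). That scaling moved the footprint median of all genes by 0.18 at 1 h and 0.27 at 8 h. Of 8 genes that glucose represses, RNA was lower for 2 and higher for 1 at 1 h, and lower for 1 and higher for 1 at 8 h, against 20.9% of all genes called lower and 21.9% higher at 1 h, and 8.61% lower and 9.03% higher at 8 h. PCK1, of gluconeogenesis, was the higher one, with 0.94 ± 0.30 at 1 h and 1.54 ± 0.25 at 8 h, and SUC2, the invertase gene, was lower at both times, with -0.75 ± 0.08 and -0.55 ± 0.12.

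Genes whose pattern was most like that of the members were sought among the 203 other genes with a mean of at least 500 CPM with DMSO in each assay and time. Likeness was the root mean square difference over the 4 log2 fold changes (RNA and footprints at 1 h and 8 h) from the members' median of -0.96, -0.93, -0.35 and -0.70 for RNA at 1 h, RNA at 8 h, footprints at 1 h and footprints at 8 h. The nearest was TPI1, the triosephosphate isomerase gene of the step just above, with a difference of 0.0769 and changes of -0.92, -0.97, -0.29 and -0.56 in the same order. EFB1, the gene of a translation elongation factor subunit, came next at 0.135 (-0.77, -0.78, -0.44 and -0.77). ADK1 (adenylate kinase, 0.199), PDI1 (protein disulfide isomerase, 0.204) and CIS3 (a cell wall protein, 0.225) followed. Among the members, GPM1 was nearest to their median at 0.0941 and PGK1 furthest at 0.248, leaving aside TDH1 and ENO1, which were under 500 CPM in RNA.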

How the data were processed

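RNA-seq (8 libraries) and ribosome profiling (8 libraries) came from the strain and treatments described above. Per the labels and the study's methods, RNA was poly(A)-selected at 1 h and rRNA-depleted at 8 h before a directional library kit. For footprints, CircLigase II served at 1 h, whereas CircLigase I, a changed reverse transcription primer and removal of rRNA by hybridisation served at 8 h. Reads were trimmed with cutadapt and aligned with STAR to R64 (sacCer3), from the submitters' processing notes and the methods. The method of counting and its use of strand were not given in the sources used here, and reads of overlapping or antisense genes cannot be told apart.

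The authors deposited raw read counts per gene, without normalisation. There were 7126 features for RNA at both times, and 6696 at 1 h and 5647 at 8 h for footprints. Footprint tables also gave codons counted, another deposited column, 20 fewer than the coding sequence for 99.9% of 5988 genes. Entries that name no gene made up 21.7 to 31.2% of RNA reads and were left out. Replicates were no copies of a library: a chi-square of their counts over genes was 1.44 to 58.7 per degree of freedom.

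Tests used edgeR 4.0.16 under R 4.3.3 (filterByExpr, TMM, quasi-likelihood test, Benjamini-Hochberg adjustment over all genes tested), in fits of the 4 libraries of an assay and time for IAA against DMSO, of the 8 libraries of a time for translation efficiency (treatment by assay), and of the 8 libraries of an assay for the time difference. The footprint to RNA ratio used the DMSO libraries alone. The steps were tested on simulated data. DESeq2 1.42.0 was an alternative, with DESeq2 size factors in edgeR, total-count scaling, no filter, a single fit of an assay, a replicate block, copies summed, a minimum log2 fold change of 0.58 and leaving out each library. Sequences came from RefSeq, build R64. Figures were drawn with matplotlib 3.10.9 in Python 3.11.15.

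The 8 members and the lists of other genes (upper glycolysis, pyruvate to ethanol, minor isoenzymes, glycolytic regulators, genes repressed by glucose) were chosen with earlier results of these data known. Named genes were the members, from each list up to 3 genes of smallest adjusted p in a comparison, and the 5 genes with the nearest pattern. Of the listed genes not all are printed, and TEF1, TEF2, TYE7, RAP1 and the printed sequence stretches were chosen after the values were seen.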

Additional observations from a re-analysis of the deposited data

Results flagged for a closer look

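For 4 members the footprint response to IAA differed between 8 h and 1 h by the test of the treatment and time interaction in edgeR (n = 2 libraries per group). The difference, 8 h minus 1 h on the log2 scale, was -0.60 for TDH1, -0.50 for TDH2, -0.63 for TDH3 and -0.55 for GPM1. The 8 h footprint change of TDH3 was -1.07 and the 1 h change -0.43, and for GPM1 these were -0.73 and -0.17. The TDH values share reads and are not separate observations. The footprint kits differed between the times, so time and kit cannot be told apart.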

How the results depend on the processing

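Members called lower in footprints numbered 0 at 1 h, 5 at 8 h and 2 for the difference between the times when a minimum size of 0.58 on the log2 scale was asked for, against 8, 8 and 4 without it. Total-count scaling left 5 called lower in footprints at 8 h, and 2 called higher in efficiency at 8 h, as did DESeq2 and the replicate block by culture. RNA at 8 h had 8 members lower with DESeq2, against 5. With the copies summed 5 features remain in place of 8 members, so no count of members can be given. Of these 5, all were lower in RNA and in footprints at both times, and 3 were higher in efficiency at 1 h and 1, the ENO sum, at 8 h. Leaving out each library in turn gave 3 to 7 members lower for RNA at 1 h, 7 to 8 for footprints at 1 h, 0 to 8 for RNA at 8 h, 7 to 8 for footprints at 8 h and 3 to 5 for the footprint difference between the times, and 3 to 7 higher for efficiency at 1 h and 0 to 2 at 8 h. The lone library of a group was then assumed to vary like the others. The number of all genes called changed in these fits too, so the ranges of member counts are not specific to the members. RNA calls at 1 h fell to 4 without DMSO replicate 1 and 3 without DMSO replicate 2, and at 8 h to 0 without IAA replicate 1 and 1 without IAA replicate 2. Efficiency calls at 1 h numbered 7 without either IAA library of RNA.

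Turned signs were seen for GPM1 footprints at 1 h (0.016 with total-count scaling), and otherwise for values that had not passed. With total-count scaling these were the RNA difference between the times for TDH1 (-0.045) and PGK1 (-0.033). Over the left-out libraries the RNA difference ran between -0.34 and 0.86 for TDH1, -0.022 and 0.26 for PGK1, and -0.13 and 0.024 for GPM1, and the footprint difference between -0.21 and 0.010 for ENO1. Efficiency ran between -0.18 and 1.03 for TDH1 at 1 h, and at 8 h between -0.013 and 0.26 for TDH3 and between -0.073 and 0.28 for ENO1. The cause was not tested. The all-gene median moved under total-count scaling by 0.22 in 1 h RNA, 0.18 in 1 h footprints, 0.27 in 8 h footprints and -0.16 in the RNA difference. Of all calls, those in the positive direction were then 81.8% against 51.1% for RNA at 1 h, 84.6% against 42.8% for footprints at 1 h, 64.4% against 51.2% for RNA at 8 h, 87.1% against 45.9% for footprints at 8 h, 78.1% against 63.1% for efficiency at 8 h, 29.9% against 65.6% for the RNA difference and 73.9% against 62.2% for the footprint difference.

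Samples with the same replicate number deviated together in RNA (correlation 0.488 at 1 h and 0.462 at 8 h) and not in footprints (0.0309 and 0.0429), and the labels name no shared culture or batch. The numbers were not taken as pairs, and whether RNA libraries share more than a number is not known. With a replicate block 1 more member, TDH1, was lower in RNA at 1 h (-0.77), and at 8 h TDH1 (-0.54) and ENO1 (-0.54) were called and CDC19 (-0.89) was not. The block added TDH2 (0.55) and ENO2 (0.46) to efficiency at 1 h, and by culture added TDH2 (0.56) and dropped TDH3 (0.50). TMM within each assay, chosen after seeing the data, added ENO2 efficiency at 1 h (0.51). Of the members' values under these alternatives, 702 kept direction and side of the threshold, 41 lost the call, 32 gained it and 17 turned sign. Over only genes in all tables, the members' share of RNA at 8 h was 4.30% with IAA, against 7.78% with DMSO, and of footprints at 1 h 12.6% with IAA, against 14.1% with DMSO.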
